A study of Mus musculus with 8 samples.

Results

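The genes examined here were Cd79a, Cd79b, Cr2, Cd81, Cd22 and Cd72, which encode signalling chains of the B cell antigen receptor and coreceptors that raise or lower its signal. They were chosen by name, 6 of 21728 protein-coding genes on the autosomes and X, by a rule that uses no measured value, although earlier results of these data were known when the choice was made. Each gene body was taken with 10 kb to either side (GENCODE M21 on GRCm38), and this stretch is called its locus. The 6 loci covered 206449 bp and 2401 CpGs of the reference, of which 2269 had at least 5 reads in each of the 4 files. The question asked of them was how far low methylation in B cells reached past the promoters, and where it began and ended, compared with T cells.

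The data are methylation levels of CpGs, read by bisulfite sequencing of the whole genome in spleen lymphocytes of C57BL/6J mice of 6 to 8 weeks, an inbred strain, with no treatment given in the labels. The 8 samples formed 4 groups of 2, which were CD43- (resting) B cells of females, naive CD4+ T cells of females (sorted as CD62Lhi, CD44lo and CD25-), and the same 2 cell types of males. Per the study's methods, cells of several animals were pooled for each sample. Each group had 1 deposited file. The labels of both samples of a group name that file, while the number in the file's name matches 1 of them. Whether the file comes from 1 sample or from the pair is not stated in the sources used here. B and T cells were thus compared once in females and once in males, with no spread between pools of one kind. Bisulfite reads 5-methylcytosine and 5-hydroxymethylcytosine alike, and a level below is the percent of reads methylated at a CpG or over a group of CpGs.

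The B cell antigen receptor is a membrane immunoglobulin that cannot signal by itself. Its signal passes through a pair of companion chains, Igα and Igβ, encoded by Cd79a and Cd79b, whose cytoplasmic tyrosine motifs recruit kinases. The coreceptor complex that holds CD21, the product of Cr2, and the tetraspanin CD81 lowers the threshold for activation when complement is bound to the antigen, while CD22 and CD72 carry inhibitory tyrosine motifs that recruit phosphatases. CD81 is made by many cell types, T cells included, whereas the other 5 are best known from B cells. In mammalian cells CpG-rich promoters are mostly unmethylated everywhere, and CpG-poor promoters and enhancers often lose methylation only in the lineage that uses them.

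The mean depth was 14.6 to 17.7 reads per autosomal CpG, and the autosomal level was 79.5 to 80.7% in the 4 files, with neither B file below its T counterpart. Promoters of 5 B cell markers had medians of 10.5% in female B, 12.5% in male B, 78.9% in female T and 79.6% in male T cells. Those of 6 T cell markers had medians of 77.7, 78.4, 8.51 and 6.43% in that order. Of these, 3 B cell promoters were called lower and 5 T cell promoters higher in B cells. None of the 4 myeloid or 2 erythroid marker promoters was called in either direction, the widest difference being -19.3 points at Lyz2 (adjusted p = 0.0433), and 1 of 3 natural killer cell promoters (Nkg7) was called higher in B cells. The labels and the marker promoters thus pointed the same way in every file, and the share of other cells in each pool was not tested.

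The sequences below show the CpG content of the stretches the results turn on, with CpGs in capitals. They are the 300 bases from 250 before to 50 after the RefSeq start on GRCm38 (5 of the 6 genes were matched by symbol), written along the coding strand.
Cd79a promoter, chr7:24897247-24897546, plus strand: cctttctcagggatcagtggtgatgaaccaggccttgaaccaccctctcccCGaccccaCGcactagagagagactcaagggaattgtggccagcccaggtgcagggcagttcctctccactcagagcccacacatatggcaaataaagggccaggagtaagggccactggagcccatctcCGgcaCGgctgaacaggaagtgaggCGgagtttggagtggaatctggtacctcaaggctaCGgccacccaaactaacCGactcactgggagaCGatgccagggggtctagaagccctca
Cd22 promoter, chr7:30878979-30879278, minus strand: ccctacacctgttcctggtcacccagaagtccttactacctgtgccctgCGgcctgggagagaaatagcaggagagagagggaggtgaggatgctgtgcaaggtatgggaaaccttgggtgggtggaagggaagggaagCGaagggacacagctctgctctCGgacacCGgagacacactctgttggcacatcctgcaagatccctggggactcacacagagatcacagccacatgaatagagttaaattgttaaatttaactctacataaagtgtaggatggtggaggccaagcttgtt
Cd72 promoter, chr4:43454577-43454876, minus strand: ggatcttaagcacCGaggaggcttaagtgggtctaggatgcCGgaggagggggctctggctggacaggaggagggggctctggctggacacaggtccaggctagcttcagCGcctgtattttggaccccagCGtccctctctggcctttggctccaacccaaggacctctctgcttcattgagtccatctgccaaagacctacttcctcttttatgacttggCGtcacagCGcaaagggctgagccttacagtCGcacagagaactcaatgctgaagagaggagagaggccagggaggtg
Cr2 promoter, chr1:195176670-195176969, minus strand: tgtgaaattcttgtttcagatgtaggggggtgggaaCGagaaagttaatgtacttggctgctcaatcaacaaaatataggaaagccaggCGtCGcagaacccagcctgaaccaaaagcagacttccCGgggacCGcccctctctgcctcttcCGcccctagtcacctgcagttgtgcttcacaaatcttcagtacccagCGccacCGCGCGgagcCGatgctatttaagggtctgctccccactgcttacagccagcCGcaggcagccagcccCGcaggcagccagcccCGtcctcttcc

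Over the 8 CpGs of the Cd79a stretch the level was 2.26% in female B, 0% in male B, 65.2% in female T and 62.1% in male T cells. The Cd22 stretch has 4 CpGs, and the 3 with enough reads stood at 5.26, 13.5, 88.9 and 92.5% in the same order, from 18 to 53 reads per file. In both stretches the B files lay below the T files, with no overlap. The Cd72 stretch has 7 CpGs and was low in every file, at 0% in female B, 0.73% in male B, 17.2% in female T and 11.6% in male T cells. The Cr2 stretch is richer in CpGs, with 14, and did not exceed 0.699% in any file.

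Core letters of factors known from B cell genes were searched on both strands of these stretches, with N for any base. The EBF core TCCCNNGGG was matched by 2 overlapping words in the Cd22 promoter and not in the other 3 stretches, and 6.6% of all 32619 promoters of this length hold it. The PU.1 site GAGGAAGT was matched once, in the Cd72 promoter, against 3.22% of promoters. An E box of E2A, CAGCTG or CAGGTG, was matched once each in the Cd79a, Cd22 and Cr2 promoters, and 33.1% of promoters hold one. The octamer ATGCAAAT, the ETS core CCGGAAGT, the NF-kB core GGGANNTTC and the RUNX core TGTGGTT had no match in the 4 stretches, against 1.75, 3.91, 3.96 and 5.29% of promoters. A match here is a description of letters only. A missing match covers these exact letters alone, since variants of the sites were not searched.

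Low methylation covered far more of the 6 loci in B cells than in T cells. A low run was defined as at least 4 CpGs in a row, no more than 1 kb apart, whose running level over 3 CpGs was under 50%. Low runs summed to 36049 bp in female B, 39569 bp in male B, 21101 bp in female T and 21488 bp in male T cells, so both B files lay above both T files. Sequence that was low in both B files and in neither T file, called B-only here, came to 14597 bp, of which 10870 bp (74.5%) lay over 1 kb from the start of any gene. With low taken as under 30%, the B-only sequence came to 9567 bp, of which 5334 bp lay over 1 kb from gene starts. Gene starts here are the outermost annotated start of each gene. With low again under 50% and the starts of all transcripts left out, less sequence lay beyond starts, as given at the end. The reverse, T-only, came to 1481 bp, all of it in Arhgef1 beside Cd79a. Sequence low in all 4 files came to 18039 bp.

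At single CpGs, which are the same CpGs that form the runs, 202 were under 50% in both B files and over 50% in both T files. There were 13 the other way round, and the shares over all CpGs of the genome were not computed. At least 500 bp of B-only sequence was found at 4 of the 6 loci (Cd79a, Cd79b, Cd22 and Cd81), while 13.4% of all protein-coding genes reach that length when treated alike. Counting only sequence over 1 kb from gene starts, the same 4 loci passed 500 bp, against 11.8% of genes. T-only sequence passed 500 bp at 1 of the 6 loci, Cd79a, against 15.2% of genes. The 2 loci below these lengths were Cd72, with 294 bp of B-only sequence, and Cr2, with 0. At Cd81 the B-only stretches of 100 bp or more within the gene had T levels near the 50% limit, at 46.3 to 56.1%.

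**Figure D1:**
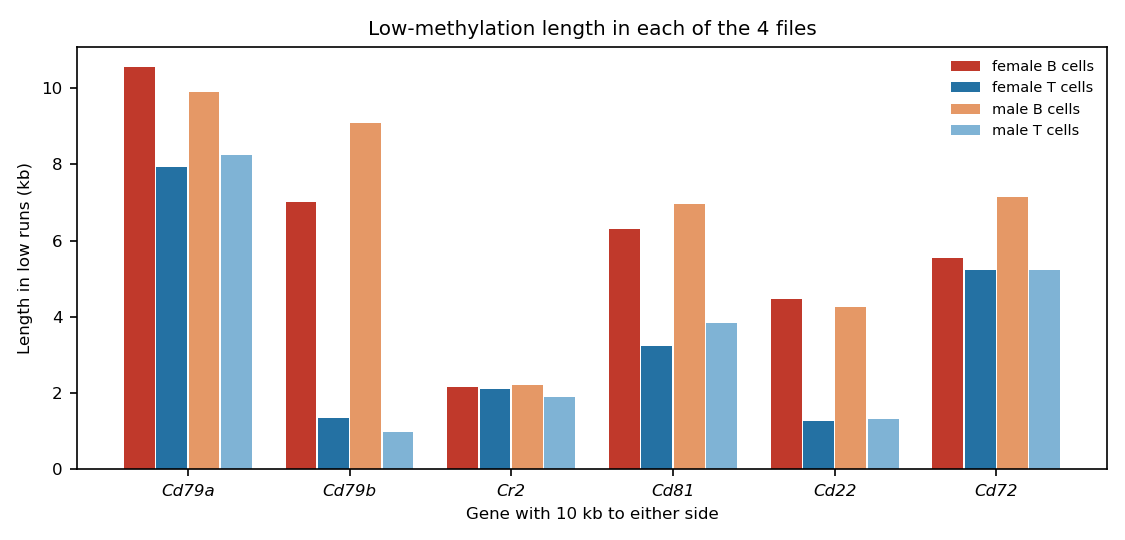
Length in low-methylation runs (kb, y axis) at the locus of each gene (x axis) in the 4 files, 1 bar per file. The B cell bars stand above the T cell bars at each locus, most at Cd79b (6999 and 9093 bp in B against 1340 and 961 bp in T cells), while the 4 bars of Cr2 lie between 1892 and 2220 bp.

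In windows of 1 kb, 35 of the 191 windows tested at the 6 loci (18.3%) were called lower in B cells, against 0.913% of all 2018320 windows, and 3 (1.57%) were called higher, against 1.16%. A call needed an adjusted p under 0.05 in a quasi-binomial model fitted across all windows, with limma's variance squeezing, and a mean difference of 20 percentage points. The calls at the loci had adjusted p up to 0.00245. They depended on how the dispersion was set: with a prior from all windows, including those with few expected reads of a kind, 0 windows were called (adjusted p of 0.0629 to 0.222), although 35 lower and 3 higher windows had an unadjusted p under 0.05. Lower windows were present at every locus: 14 of 24 at Cd79b, 6 of 25 at Cd79a, 7 of 35 at Cd22, 5 of 34 at Cd81, 2 of 28 at Cd72 and 1 of 45 at Cr2. The 3 higher windows all lay at Cd79a, within Arhgef1. Of the 35 lower windows, 9 touched the 1 kb to either side of a member's start and 26 lay elsewhere.

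**Figure D2:**
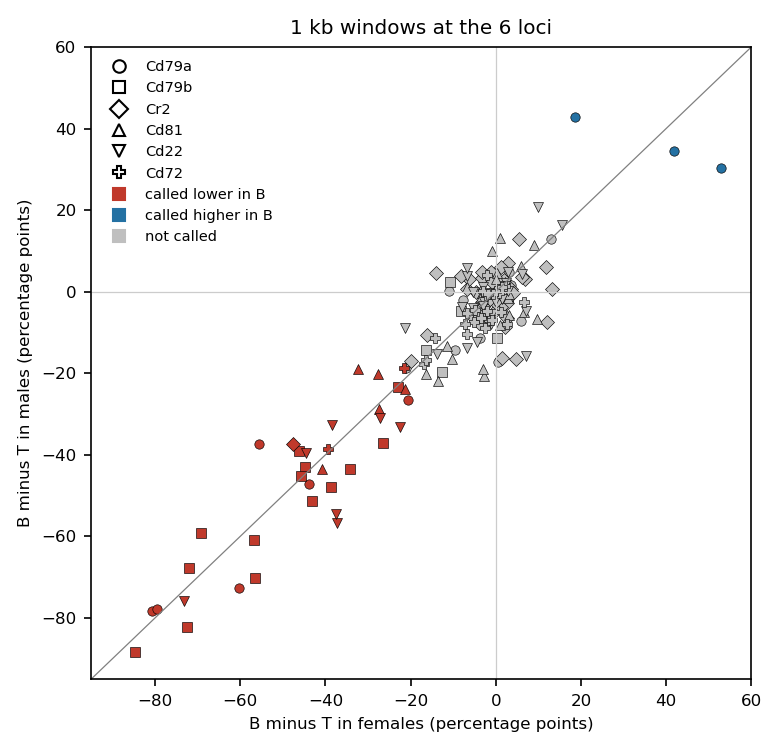
Difference in level between B and T cells in females (x axis) and in males (y axis), in percentage points, for each 1 kb window tested at the 6 loci. Symbols give the locus, red and blue the windows called lower and higher in B cells, and the diagonal equal differences, and all 38 called windows have the same sign in both sexes.

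The median size of the 38 called differences was 42.6 points, and the largest gap between the female and the male difference of one window was 24.4 points. Edges of low runs were compared between the sexes where 1 run of the female file overlapped 1 run of the male file, which leaves out runs that were split in one sex, as over the Cd79b start in B cells and within Arhgef1 in T cells. Of 54 such edges in B cells, 34 fell on the same CpG and 8 differed by over 200 bp, and the largest difference was 1795 bp. Of 32 such edges in T cells, 19 fell on the same CpG, and the largest difference was 755 bp. The p-values of windows rest on read counts and the average spread across the genome, since their prior had infinite degrees of freedom. A window's own spread, with 1 residual degree of freedom, thus had no weight, so very small values overstate the certainty for a single window.

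Among the signalling chains, Cd79a (ENSMUSG00000003379.7, chr7:24897381-24902197, plus strand) had the promoter with the largest difference of the 6. Over 1 kb to either side of its start the level was 10.5% (95% Wilson interval 8.25 to 13.2, 582 reads) in female B, 17.0% (14.2 to 20.2) in male B, 83.4% (80.3 to 86.0) in female T and 79.3% (76.1 to 82.1) in male T cells. The mean difference was -67.6 points (adjusted p = 5.98e-06). It was called lower, as were the promoters of Cd79b and Cd22, 3 of 6 in all against 0.432% of 21055 promoters. Without any 1 of the 4 files, in a fit with no term for sex, only Cd79a kept its call (adjusted p of 0.0166 to 0.0374). The promoters of Cd79b (-36.8 to -26.9 points, adjusted p of 0.0526 to 0.188) and Cd22 (-37.6 to -32.5 points, adjusted p of 0.0614 to 0.118) missed it. No member promoter was called higher in B cells, against 0.484% of promoters. All 6 mean differences were below 0, with a median of 0.148 points over all genes. Those of Cr2 (-4.46 points) and Cd81 (-0.636 points) did not pass the test.

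Low methylation in B cells at Cd79a ran from upstream of the start into the gene as 3 separate runs, and neither T file had a low run in that stretch. The central run, chr7:24897061-24898599, had the same edges in both B files, from 320 bp before to 1218 bp after the start. It held 30 CpGs at 2.99% (1.75 to 5.05) in female and 3.88% (2.36 to 6.3) in male B cells, and the same CpGs stood at 85.4% in each T file. The run before it ended at 24896755 in both B files, 626 bp before the start, and began at 24895568 in females and 24896216 in males. The run after it, in exons and introns of the gene, ended at 24899974 in both and began at 24899003 in females and 24898826 in males, and it was less complete, at 25.2% in female and 19% in male B cells. Where this last run was low in both B files, the T files stood at 85.5 and 91.2%.

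The window chr7:24897001-24898000, across the start, stood at 2.7, 3.7, 83.5 and 82.1% in female B, male B, female T and male T cells (adjusted p = 2.12e-171), and had the largest difference at the locus. Neighbouring genes share the locus. A B-only run of 129 bp with 7 CpGs, chr7:24888635-24888763, lay 8618 bp before the Cd79a start inside Rps19, a ribosomal protein gene, at 11.6 and 10.8% in B and 84.6 and 87.5% in T cells. From within the 3′ part of Cd79a onward, the promoter of Arhgef1, which encodes a guanine nucleotide exchange factor for RhoA, was low in all 4 files over chr7:24901207-24905271.

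From there the T cell runs reached further into Arhgef1 than those of B cells. In B cells of both sexes the run ended at 24905271 and a separate run followed at chr7:24906607-24907896, while in male T cells 1 run continued to 24908363 and in female T cells 2 runs reached 24908215. The window between, chr7:24906001-24907000, stood at 55.1% in female B, 35.8% in male B, 2.15% in female T and 5.43% in male T cells (adjusted p = 5.88e-17). Over the sequence of the Cd79a locus beyond 1 kb of gene starts, where these opposite changes add up, the mean difference was -7.28 points (46.8, 41.7, 50.6 and 52.5% in the same order, adjusted p = 0.0251), short of the 10 points required for a call. It passed with a flank of 5 kb (-11.9 points), without all transcript starts (-13.0 points) and at 10 reads or more (-10.5 points). With 1 file left out it was -9.83 to -4.72 points (adjusted p of 0.00566 to 0.176).

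**Figure D3:**
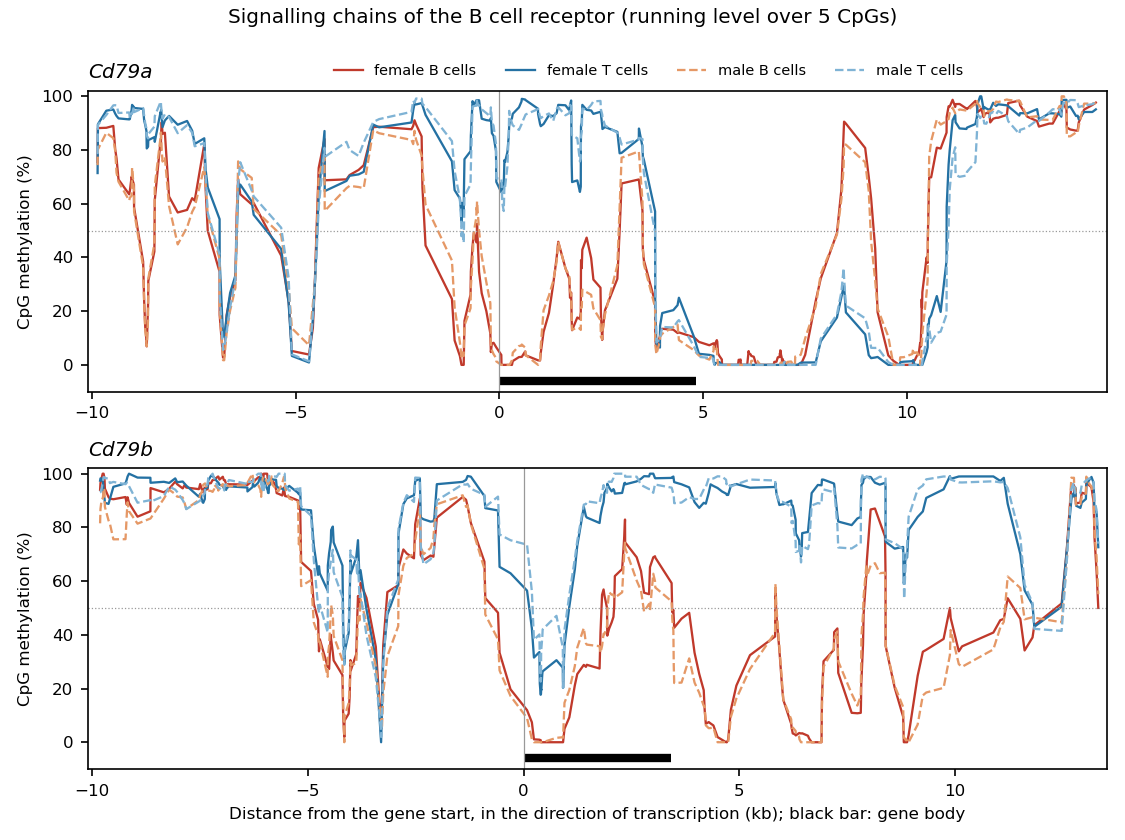
CpG methylation (%, running level over 5 CpGs, y axis) by distance from the gene start (kb, x axis) at Cd79a and Cd79b in the 4 files, with the gene body as a black bar. B cell lines drop around and past the start of Cd79a and at repeated places within and past Cd79b, where T cell lines stay higher. Soon after 7890 bp at Cd79a, within Arhgef1, the B cell lines rise above the T cell lines over a short stretch.

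Cd79b (ENSMUSG00000040592.11, chr11:106311341-106314762, minus strand) had the widest B-only sequence of the 6 genes, 5452 bp or 23.3% of its locus, and 38 of 21728 genes (0.175%) had more. Of this, 4619 bp lay over 1 kb from gene starts. The promoter stood at 8.19% in female B, 9.91% in male B, 35.9% in female T and 45.8% in male T cells, a mean difference of -31.8 points (adjusted p = 0.000297). T cells were thus less methylated at this promoter than at that of Cd79a, where they stood at 83.4 and 79.3%. Single CpGs of the Cd79a promoter were also partly unmethylated in T cells. In both T files a low stretch lay inside the gene, chr11:106313704-106314003, at 20.3 and 20.2%, where the B files stood at 0 and 1.67%. In female T cells the run went on to 106314525, 237 bp from the start. Male T cells had a further short run at chr11:106314353-106314398.

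Around that stretch the low run of B cells reached further on both sides. It ended upstream at 106315358 in both B files, 596 bp before the start, and reached down into the gene to 106312981 in females and 106312824 in males. Beyond the 3′ end of the gene, in the intergenic sequence toward the growth hormone gene Gh, B cells had a chain of further low runs, none of them present in the T files. The run nearest the gene end began at 106309831 in both and ended at 106310694 in females and 106311293 in males, while females had a second short run at chr11:106310925-106311284. The next, chr11:106307811-106308775, had the same edges in both B files and stood at 3.08% (1.57 to 5.95) in female and 2.82% (1.54 to 5.11) in male B cells, against 83.7 and 78.8% in T cells.

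Further out, a less complete run ended at 106307491 and began at 106306882 in females and 106306896 in males, at 17.1 and 24.1%. The window chr11:106310001-106311000, past the 3′ end of the gene, had the largest difference of all windows at the 6 loci, with 7.63% in female B, 6.82% in male B, 92.3% in female T and 95.1% in male T cells (adjusted p = 1.97e-179).

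Called windows followed one another without a break from chr11:106303001 to 106316000, 13 in a row, and the remaining one, chr11:106319001-106320000, lay within Scn4a, a muscle sodium channel gene, upstream of Cd79b. Over all sequence of the locus beyond 1 kb of gene starts the level was 56.4% in female B, 52.1% in male B, 86.5% in female T and 85.1% in male T cells. The mean difference of -31.6 points was called (adjusted p = 1.28e-05), and this test called 2 of the 6 genes, Cd79b and Cd22, against 0.27% of 21453 genes. No member was called higher by it, against 0.653% of genes. The mean differences of all 6 were below 0, with a median of 0.109 points over all genes. Those of Cr2 (-0.763 points) and Cd72 (-0.746 points) did not pass the test, and Cd72 differed in sign between the sexes.

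Of the coreceptor genes, Cr2 (ENSMUSG00000026616.15, chr1:195136811-195176716, minus strand) had no B-only sequence and 1 called window, the fewest of the 6 genes on both counts. Its promoter stood at 10.7% (7.61 to 14.7) in female B, 8.35% (6.04 to 11.4) in male B, 13.5% (10.6 to 17.1) in female T and 14.4% (11.4 to 17.9) in male T cells. The mean difference of -4.46 points did not pass the test (adjusted p = 0.418). A single low run covered the start in every file, of 605 bp in female B, 663 bp in male B, 544 bp in female T and 605 bp in male T cells. Outside it the 39906 bp of the gene body held no low run in any file.

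Over the Cr2 sequence beyond gene starts the level was 92.7, 92.1, 93.4 and 92.9% in female B, male B, female T and male T cells, with a mean difference of -0.763 points (adjusted p = 0.478). The 1 window called at this locus, chr1:195178001-195179000, lay upstream, from 1285 to 2284 bp before the start. It held 3 CpGs at 47.4% in female B, 48.1% in male B, 95.1% in female T and 85.4% in male T cells, from 48 to 61 reads per file (adjusted p = 2.64e-08). Of these CpGs, the one at 195178258 stood at 3.85% in female B, 4.76% in male B, 88% in female T and 70% in male T cells, from 20 to 26 reads per file. The other 2 of Cr2 lay between 66.7 and 100% in every file. At the far end of the locus the promoter of Cr1l, a complement receptor-related gene, was low in all files over chr1:195130710-195131996.

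**Figure D4:**
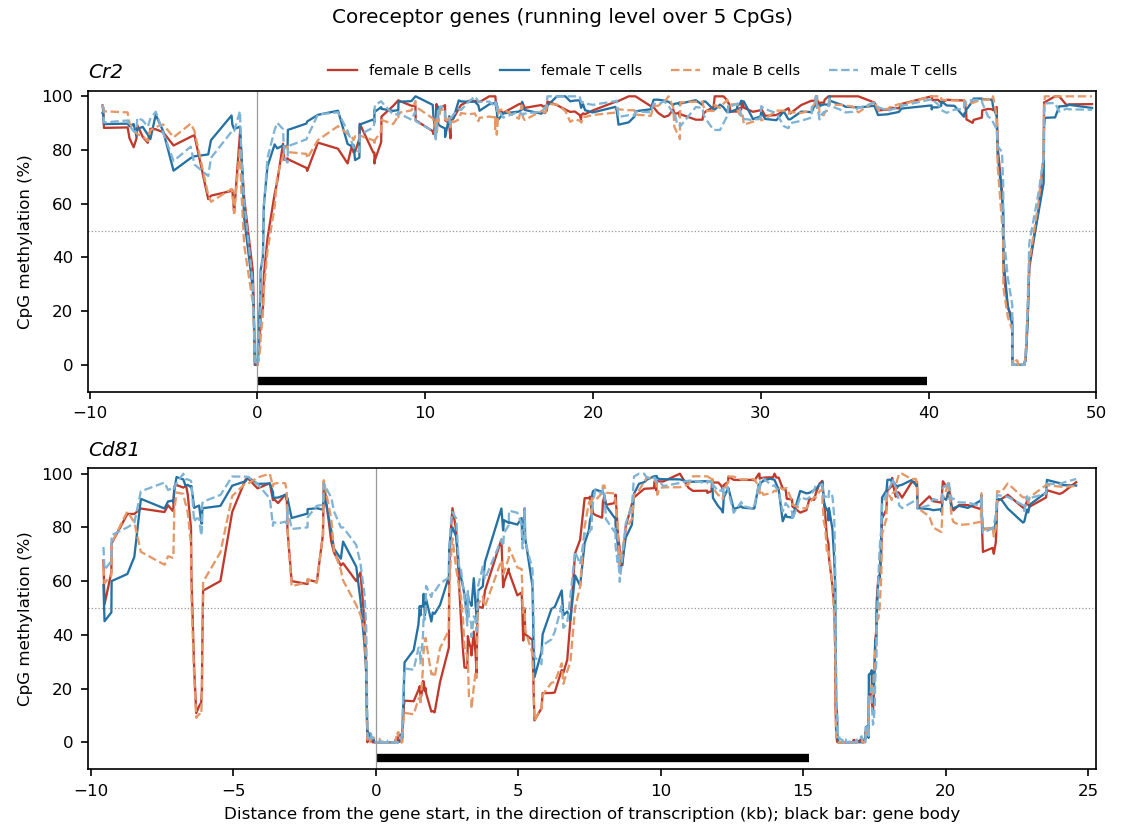
CpG methylation (%, running level over 5 CpGs, y axis) by distance from the gene start (kb, x axis) at Cr2 and Cd81 in the 4 files, with the gene body as a black bar. The 4 lines of Cr2 fall together at the start and stay high through the body, while at Cd81 the B cell lines dip below the T cell lines at several places between 1768 and 6588 bp past a start that is low in all files, and meet or cross them in between.

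Cd81 (ENSMUSG00000037706.17, chr7:143052739-143067934, plus strand), the gene of the tetraspanin, had a CpG-rich promoter that was unmethylated in both cell types. The level over 1 kb to either side of the start was 2.14% in female B, 2.99% in male B, 2.85% in female T and 3.56% in male T cells, and the mean difference of -0.636 points did not pass the test (adjusted p = 0.681). B-only sequence lay past the promoter, within the gene, and also upstream. The low run over the start ended at 143055308 in both B files, 2569 bp into the gene, but at 143053751 in female T and 143054506 in male T cells. Over chr7:143054507-143055308 the level was 11.1, 24.2, 47.8 and 56.1% in female B, male B, female T and male T cells.

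Next to it a further run, chr7:143055728-143056336, had the same edges in both B files and no counterpart in T cells. Its contrast was shallow, at 30% in female B, 28.1% in male B, 51.2% in female T and 46.3% in male T cells, so that the T files lay close to the 50% limit that defines a run. Another run in the gene reached from 143058241 in females and 143057984 in males to 143059327 and 143059575. Both T files were low only over chr7:143058277-143058598. Past that, over chr7:143058599-143059327, the level was 22.7% in female B, 28.0% in male B, 55.6% in female T and 47.5% in male T cells. The T files thus lay close to the limit here too. Upstream of the gene, B cells of both sexes had a run that began at 143046365, inside the transcript R74862, and T cells had none. Its common part, chr7:143046365-143046651, stood at 13.2% in female B, 9.57% in male B, 83.7% in female T and 78.9% in male T cells, the steepest contrast at this locus.

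B-only sequence at Cd81 came to 2466 bp, of which 2283 bp lay over 1 kb from gene starts, or 1518 bp when the starts of all annotated transcripts were left out. The window with the largest difference, chr7:143046001-143047000, stood at 49.3, 45.7, 90.2 and 89.3% in female B, male B, female T and male T cells (adjusted p = 5.41e-29). Over all sequence beyond gene starts the level was 74.2, 73.8, 80.6 and 81.8% in the same order, and the mean difference of -7.15 points (adjusted p = 0.0022) was short of the 10 points required for a call. At the 3′ end of the locus a stretch that overlaps Trpm5 and Tssc4, chr7:143068896-143070271, was low in all files.

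The inhibitory receptor gene Cd22 (ENSMUSG00000030577.14, chr7:30865402-30880342, minus strand) encodes a sialic acid-binding lectin. Its annotated transcripts begin at several places, and the start of the gene used here, at 30880342, is that of the outermost, while the RefSeq promoter shown above lies 1064 to 1363 bp downstream of it. The promoter stood at 32.8% (28.1 to 38.0) in female B, 27.7% (314 reads) in male B, 66.2% (61.6 to 70.5) in female T and 64.4% (59.8 to 68.8) in male T cells. The mean difference of -35.1 points was called (adjusted p = 0.000455). The RefSeq start lies outside this promoter of 1 kb to either side, and over 500 bp to either side the difference was -19.2 points (adjusted p = 0.0252).

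In both B files 1 low run of 28 CpGs, chr7:30878094-30880427, covered the whole region of alternative starts, at 15.2% (11.9 to 19.3) in female and 7.69% (5.44 to 10.8) in male B cells. In T cells the low run was confined to the outermost start, at chr7:30880253-30880427 in females and 30880203-30880427 in males, with 6 and 7 CpGs. The upstream edge was therefore the same in all 4 files, and the downstream edge lay 2109 bp further in B cells than in male T cells. Over this B-only stretch of 21 CpGs the level was 18.0% in female B, 9.4% in male B, 76.3% in female T and 77.1% in male T cells. The window chr7:30879001-30880000 stood at 9.04, 4.05, 82.4 and 79.8% in the same order (adjusted p = 8.54e-83).

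Outside the starts, Cd22 had B-only sequence at both ends of its locus. Past the 3′ end, chr7:30863382-30863777 stood at 5.88% in female B, 9.52% in male B, 63.7% in female T and 62.6% in male T cells. Upstream, a run that was low in all files over chr7:30887582-30887997 began earlier in B cells, at 30886953 in females and 30887158 in males. Over chr7:30887158-30887581 the level was 12% in female B, 9.38% in male B, 66.0% in female T and 76.1% in male T cells. The gene body between, apart from a low stretch of all 4 files at chr7:30873142-30873431 beside the start of Gm29439, had no run.

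B-only sequence at Cd22 came to 2929 bp, with 2068 bp over 1 kb from the starts of genes but 820 bp when the starts of all its transcripts were left out as well. Over all sequence beyond gene starts the level was 74.7% in female B, 72.3% in male B, 84.4% in female T and 85.3% in male T cells. The mean difference was -11.4 points and was called (adjusted p = 0.000529), and with a flank of 5 kb it was -9.35 points and was not. The other genes in the locus, Ffar1 and Ffar3, which encode fatty acid receptors, and D7Ertd128e, held no B-only run of 100 bp or more.

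**Figure D5:**
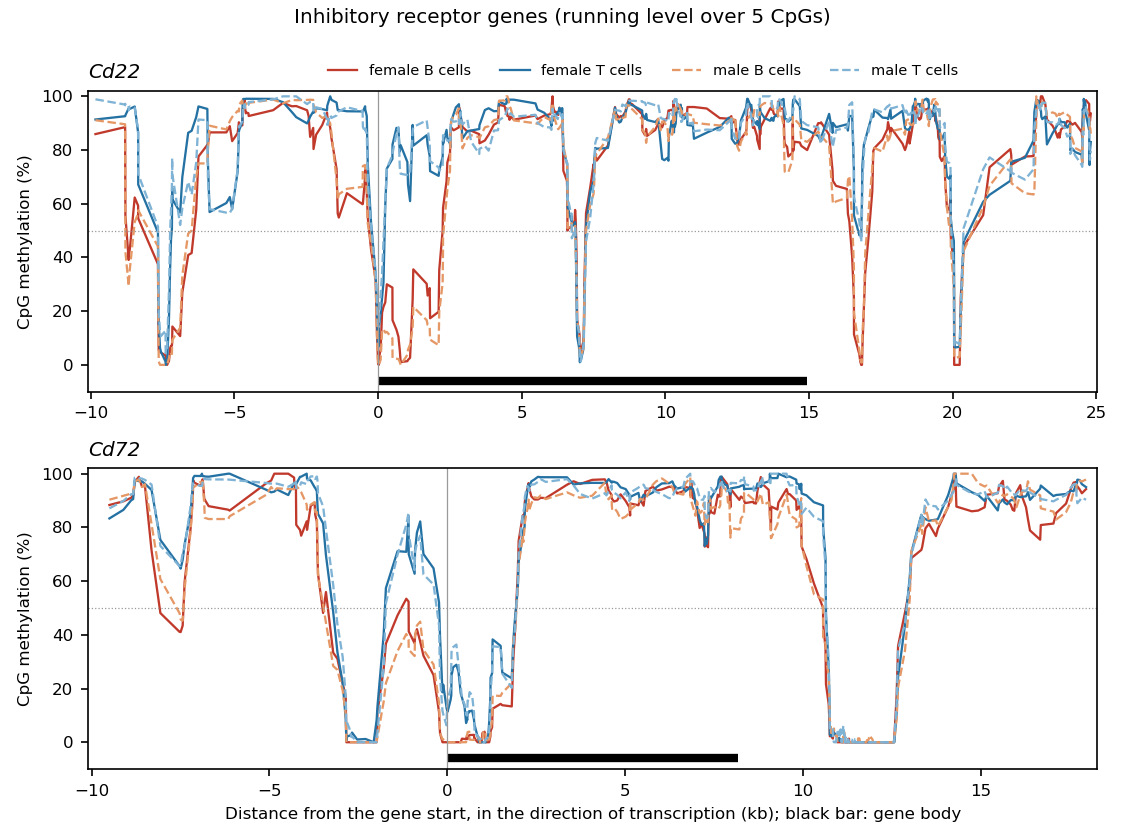
CpG methylation (%, running level over 5 CpGs, y axis) by distance from the gene start (kb, x axis) at Cd22 and Cd72 in the 4 files, with the gene body as a black bar. At Cd22 the B cell lines stay low for 2248 bp past the start while the T cell lines rise within 139 bp, and at Cd72 the lines of all files fall over the start, with T cells above B cells.

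Cd72 (ENSMUSG00000028459.11, chr4:43446462-43454628, minus strand), which encodes a C-type lectin, was low at its start in both cell types. The promoter stood at 5.38% (3.82 to 7.54) in female B, 3.78% (2.64 to 5.37) in male B, 22.7% (19.9 to 25.8) in female T and 22.7% (869 reads) in male T cells. The mean difference of -18.1 points had an adjusted p of 0.000311 and fell short of the 20 points required, and over 500 bp to either side it was -23.7 points (adjusted p = 8.47e-06). The low run over the start had nearly the same extent in all files. It began at 43452729 in each, 1899 bp into the gene, and ended at 43455017 in both B files, 43454835 in female T and 43454863 in male T cells.

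Within this run the levels differed between the cell types although its edges hardly did. They were 2.56% (1.65 to 3.97) in female B, 3.58% (2.6 to 4.92) in male B, 14.0% (11.9 to 16.4) in female T and 13.2% (11.3 to 15.4) in male T cells. A second low run upstream, about chr4:43456593-43457570, was present in all files and was widest in male B cells, where it reached from 43455483 to 43458121. The window between the 2 runs, chr4:43455001-43456000, stood at 43.4% in female B, 41% in male B, 82.9% in female T and 79.7% in male T cells (adjusted p = 3.14e-13). The only other called window, chr4:43462001-43463000, stood at 49.1, 52.4, 70.6 and 70.9% (adjusted p = 0.00245), close to the threshold of 20 points.

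Over the Cd72 sequence beyond gene starts the sexes differed in sign. The level was 55.2% in female B and 52.5% in female T cells, and 53.8% in male B and 58.0% in male T cells, with a mean difference of -0.746 points (adjusted p = 0.784). At the far end of the locus a stretch at the start of Tesk1, a kinase gene, was low in all files over chr4:43441961-43443911.

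The B-only stretches of the 6 loci differed in base composition from those low in all files. The 22 B-only segments of 100 bp or more had a median length of 602.5 bp, held 1.56 CpGs per 100 bp, and had an observed to expected CpG ratio of 0.231 at a GC content of 51.9%. The 19 segments low in all 4 files held 3.91 CpGs per 100 bp, with a ratio of 0.487 and a GC content of 56.7%. By position, 13.3% of the B-only bases lay in exons of the member and 26.7% downstream of it. The rest lay in its introns and upstream. Of the bases low in all files, 51.8% lay downstream of the member, where several loci hold starts of neighbouring genes. Some B-only segments were gaps between a B edge and a T edge with a single CpG (276 bp at Cd79a and 154 bp at Cd72). The sets thus hold unlike features. These values are descriptions over few segments that share loci, with no test.

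Other genes that act with the receptor were taken as a list of 26. Of their 2208 windows, 175 (7.93%) were called lower in B cells and 36 (1.63%) higher, against 0.913 and 1.16% of all windows. At least 500 bp of B-only sequence was found at 22 of the 26, against 13.4% of all genes. The median length was 1490.5 bp, against 2697.5 bp over the 6 members and 0 bp over all genes. No test compares the lists with each other or with other genes.

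The 5 genes of that list with most called windows were long genes of the signalling chain. Pik3ap1, an adaptor of phosphoinositide 3-kinase, had 20 windows lower and 1 higher of 129. Prkcb, the gene of protein kinase C beta, had 12 lower and 5 higher of 355. Blnk, the adaptor that links the receptor to phospholipase C, had 16 lower of 84, and Inpp5d, the gene of the inhibitory phosphatase SHIP1, had 15 lower of 114. Bank1, a scaffold gene, had 14 lower and 1 higher of 206.

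Of the 26 promoters, 4 were called lower and none higher, against 0.432 and 0.484% of all promoters. The 4 included those of Blnk (12.6% in female B, 9.71% in male B, 56.9% in female T and 62.5% in male T cells), Blk and Siglecg, the last pair named after their values were seen. The promoter of Pik3ap1 stood at 1.82, 1.69, 8.18 and 8.05% in the same order, although its locus held 5442 bp of B-only sequence. That of Inpp5d stood at 24.5, 21.2, 24.0 and 27.1%, with 6189 bp. As at Cd81, promoter levels that were not called stood beside called windows elsewhere in the locus.

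The profile of each member was compared with other protein-coding genes that had enough bins with reads and did not neighbour a member (20179 genes for Cr2 and 20662 for each of the other members), in bins of 2 kb from 10 kb before to 10 kb after the start over the 4 files, by the root mean square difference. The most alike were Crip1 for Cd79a (26.4 points over 10 bins), Rftn1 for Cd79b (22.7 points over 10 bins), Rspo1 for Cd81 (11.5 points over 10 bins), Olfr1298 for Cd22 (13.3 points over 8 bins), Tbc1d12 for Cd72 (7.14 points over 9 bins) and Tnc for Cr2 (6.11 points over 8 bins). None of the genes compared came closer than 22.7 points to Cd79b or 26.4 points to Cd79a, while Cr2 and Cd72 had closer matches. This is a description over 4 files.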

How the data were processed

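Per the labels, libraries were whole-genome bisulfite libraries of resting B cells and naive CD4+ T cells. The submitters' processing notes name Trim Galore, FastQC, Bismark 0.13.1 and the build mm10, with no role or order given. Filters on alignments, duplicate removal and the conversion rate are not given in the sources used here. The level of each CpG was deposited by the authors as a fraction of methylated over all reads, to 3 decimals, and its coverage as a count of reads, with both strands merged and CpGs under 5 reads left out, from the values. If PCR duplicates remain in the counts, the intervals, which cover counting error only, are too narrow.

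Positions were counted from 0 in the files, and 1 was added. All 18714703 CpGs with at least 5 reads in the 4 files then lay on a CG of GRCm38. Methylated reads were recovered as fraction times coverage, rounded. Reads were summed over 1 kb windows with at least 3 CpGs, over promoters (1 kb to either side of a gene start, GENCODE M21), and over each gene with 10 kb to either side but without promoters of any gene (at least 20 CpGs). Every feature of the autosomes and X entered a logistic fit of methylated against unmethylated reads (quasi-binomial), with terms for cell type and for sex and therefore 1 degree of freedom left over. limma 3.58.1 (R 4.3.3) squeezed the dispersions, with a prior from features with at least 5 expected reads of each kind, and cell type was tested by an F test with Benjamini-Hochberg adjustment over all features. The prior degrees of freedom were infinite for windows (dispersion 1.31), 8.91 for promoters and 5.75 for sequence beyond promoters. Calls needed an adjusted p under 0.05 and 20 points (10 points beyond promoters). Each group has 1 file, so p-values do not measure the spread between pools. For windows, with infinite prior degrees of freedom, they rest on read counts and the genome-wide dispersion alone. For the other features they also use how far the B against T difference departed between the sexes.

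The members, lists and tests were chosen with earlier results of these data known. Named were the members, genes within their loci, the 5 pathway genes with most called windows, the most alike gene of each member, and in each locus the window with the largest difference in each direction and those at outer edges of B-only runs. Sequences were read with pysam 0.24.0. The procedure was tested on simulated data. A sequence and a low run past the 3′ end of Cd79b are not reported here.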

Additional observations from a re-analysis of the deposited data

Results flagged for a closer look

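The difference between B and T cells had opposite directions in the 2 sexes for the Cd72 sequence beyond promoters, at 2.69 points in females (55.2% in B and 52.5% in T cells) and -4.18 points in males (53.8 and 58.0%). The same held for the promoter of Inpp5d, at 0.502 points in females (24.5 and 24.0%) and -5.82 points in males (21.2 and 27.1%). Each side rests on 1 file per cell type, and the difference between the sexes was not tested.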

How the results depend on the processing

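Depth limited single stretches most. The 95% Wilson interval was at most 9.96 points wide for a member promoter (291 reads or more) and 26.4 points for a called window, but up to 44.3 points for a B-only segment (11 reads or more).

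The count of windows lower in B cells moved from 35 to 63 with windows of 500 bp and 19 with windows of 2 kb. With a dispersion prior from all windows it was 0 (35 at an unadjusted p under 0.05 and 20 points), while limma called 27. The count of windows higher in B cells moved from 3 to 6 at 10 points, 1 with limma, 0 with windows of 2 kb and 0 with the prior from all windows (3 at an unadjusted p under 0.05). Leaving out 1 file gave 35 to 37 and 2 to 3. Of 38 called windows, 10 lost the call with limma, 1 with Fisher's exact test in each sex and 1 to 2 without the female B or male T file. Promoters called lower fell from 3 to 1 (1 to 1 over the 4 cases) without any 1 file. This fit has no term for sex.

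Genes called lower beyond promoters moved from 2 to 4 at 5 points and 1 at 20 points. The Cd72 difference there turned to 2.01 points without the male T file. B-only length moved from 14597 bp to 9567 bp with low taken as under 30% and 18017 bp with a running level over 5 CpGs, and was 15375 to 18964 bp (highest without the female B file) with 1 file left out. Beyond promoters it moved from 10870 bp to 5334, 13613, 13036 (at 10 reads or more) and 8476 bp (all transcript starts left out), and was 10882 to 15033 bp with 1 file left out. Leaving out a file drops a condition of the definition of B-only sequence, so longer lengths follow from the definition and do not show stability. The groups share no replicate numbers, so none was used as a block, and sex entered as a term. The cause of the other changes was not tested.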
